A study of Mus musculus with 15 samples.

Results

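The genes described here build and maintain telomeres or answer DNA breaks: telomerase and its assembly factors, the shelterin and CST complexes that cap chromosome ends, the damage kinases and their mediators, and enzymes of end joining, recombination and excision repair. They were picked by gene symbol for these functions, and all 41 were found among the 19602 genes of the kidney table. Whole kidneys came from mice of 6 to 8 weeks, of both sexes. G3 mice were Tert-/- animals of the third generation bred without telomerase, and WT mice were Tert+/+. Kidneys were perfused with cold saline and taken at day 14 after 1 injection into the abdomen of folic acid at 125 mg/kg, which injures renal tubules, or of its vehicle (200 µl of 0.3 M NaHCO3). The groups were G3 folic acid (4 libraries), WT folic acid (3 libraries), G3 vehicle (4 libraries) and WT vehicle (4 libraries). Labelled sex was uneven over them: all WT vehicle libraries were labelled female. G3 vehicle 1, 2 and 4, WT folic acid 2 and 3 and G3 folic acid 1 and 2 were labelled male, and the rest female. The strain, the deleted stretch of Tert and whether every library came from its own animal are not stated in the labels, so p-values measure the spread between libraries, which may be technical in part.

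Telomerase copies the telomere repeat from its RNA template with the reverse transcriptase Tert. The template RNA is held by Dkc1, Nhp2, Nop10 and Gar1, which also sit on the guide RNAs that modify ribosomal RNA, and mice without the enzyme lose telomere repeat from generation to generation. Shelterin hides chromosome ends from the kinases Atm and Atr, which signal breaks and exposed single strands through the checkpoint kinases and p53. In folic acid nephropathy injured tubule cells divide to replace lost neighbours, and interstitial cells lay down matrix.

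The libraries held 5014684 to 6609307 reads assigned to genes (median 6091019), all from 3′ ends of polyadenylated RNA. Values are normalised counts, reads divided by a size factor for each library, and 1 read was worth 0.895 to 1.13 of them. Tubule markers were present in every library: Slc34a1 of the proximal tubule was at 5544 to 21705 and Umod of the thick ascending limb at 6649 to 19208 normalised counts. Xist and 4 Y-linked genes went against the labelled sex in many libraries. Of the libraries labelled male 6 had Xist and nearly no Y-linked RNA, 4 labelled female had Y-linked RNA and little Xist, and G3 folic acid 4 and WT vehicle 2 had both. The 4 Y-linked genes summed to 0.977 to 7.57 normalised counts in G3 vehicle and 9.53 to 29.5 in WT folic acid libraries, against 283 to 867 in WT vehicle libraries. In WT folic acid 1 the gene Gm42418 took 23.0% of reads, against 4.85% to 8.15% elsewhere. Replicates that lay closest were G3 vehicle 3 and 4, with an average chi-square of 2.86 for each gene, then WT folic acid 2 and 3, with 3.002, where sampling alone gives about 1. WT folic acid 1 stood at 68.9 and 73.1 from the other WT folic acid libraries, where no other pair of replicates exceeded 30.6. Havcr1, a marker of injured proximal tubule, was at 22.0 to 80.8 normalised counts in G3 folic acid libraries and at 44.2, 4.80 and 0.953 in WT folic acid libraries 1, 2 and 3, against 0 to 9.02 in vehicle libraries. Each library was counted as its own sample. Without WT folic acid 1, the genes called over the whole table numbered 133 rather than 741 for folic acid in WT kidneys, 360 rather than 40 for folic acid in G3 kidneys and 942 rather than 293 for the mean G3 effect. The members called without it were 1 (Nbn) rather than 0 for the mean G3 effect and equal in number in the other 6 comparisons.

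Of the 41 genes 1, Nhp2, passed the test in any comparison. To be tested a gene needed 10 or more normalised counts in 3 or more libraries, which 39 of the 41 had, and the kinase Chek1 and the recombination gene Brca1 fell below it. Chek1 was at 0 to 10.3 and Brca1 at 0.895 to 12.3 normalised counts over the 15 libraries. A gene was called where limma's p-value, adjusted by Benjamini-Hochberg over 14651 genes, was under 0.05. Nhp2 was called in 2 of 7 comparisons and the other 38 in none.

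Folic acid against vehicle in WT kidneys called 0 of 39 with limma, where 5.06% of all tested genes were called. At an unadjusted p under 0.05 there were 6 (1 higher, 5 lower, against 23.1% of all genes), while edgeR called 0 (5.16% of all genes) and DESeq2 called 1 (8.58%). Folic acid against vehicle in G3 kidneys also called 0 with limma, where the background was 0.273%. There 4 had an unadjusted p under 0.05 (2 higher, 2 lower, against 13.8%), and edgeR and DESeq2 each called 0 (0.341% and 2.64% of all genes). Taken over both directions, the shares at unadjusted p lay below the background in both genotypes. The 5 lower in WT kidneys were 12.8% of the 39, against 11.7% of all genes in that direction.

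Between G3 and WT kidneys after vehicle, 1 of 39 was called, 2.56% of them against 2.90% of all genes. After folic acid limma called 0, against 2.30% of all genes, with 3 at an unadjusted p under 0.05 (2 higher, 1 lower, against 20.4%). There edgeR called 0 (2.52% of all genes) and DESeq2 called 1 (5.21%). The folic acid effect differed between genotypes, G3 minus WT, for 1 of 39, against 3.82% of all genes. Averaged over both genotypes, the folic acid effect called 0 (background 1.79%), and averaged over both treatments the G3 effect called 0 (background 2%). The same count for unadjusted p was 4 after vehicle (2 higher, 2 lower, against 17.9%) and 3 for the difference of effects (against 16.8%). At an unadjusted p under 0.05 the means held 3 and 5 of the 39, against 18.7% and 20.8% of all genes. For the mean folic acid effect edgeR and DESeq2 each called 0 (3.18% and 5.88% of all genes). For the mean G3 effect edgeR called 0 (1.83% of all genes) and DESeq2 called 1 (5.19%). Taken over both directions, none of these shares exceeded its background. By direction, the 1 called lower after vehicle was 2.56% of the 39, against 2.03% of all genes. The 1 called higher for the difference was 2.56%, against 2.16%. Groups without overlap were found for 4 genes in WT and 2 in G3 kidneys between folic acid and vehicle, against 19.9% and 7.75% of all genes. Between G3 and WT they were found for 2 after vehicle and 3 after folic acid, against 11.0% and 17.3%.

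**Figure D1:**
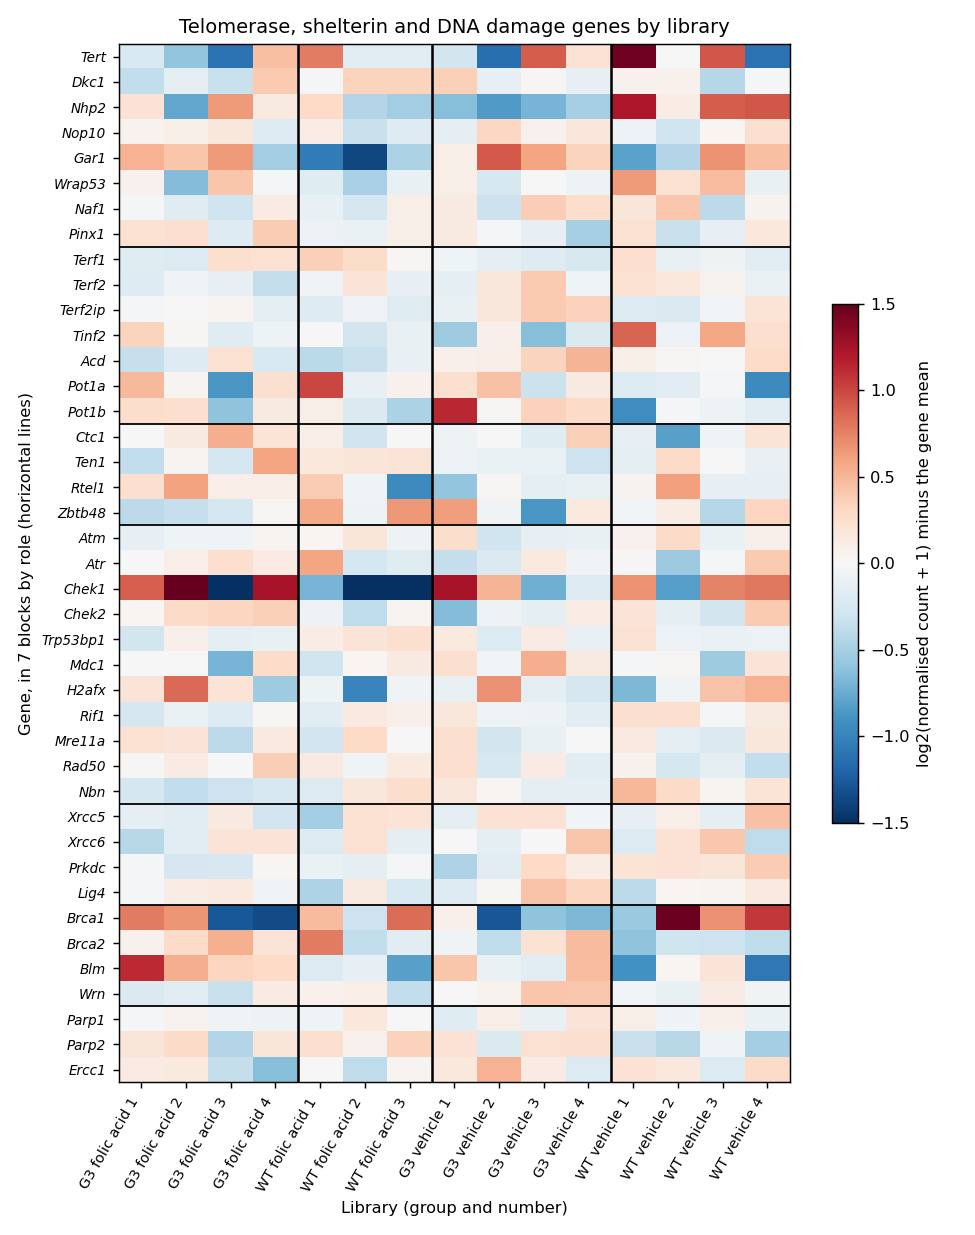
Log2(normalised count + 1) of each of the 41 genes in each of the 15 libraries, minus the gene's mean over libraries. Rows are in 7 blocks by role and columns in 4 groups. Nhp2 is blue in G3 vehicle and dark red in 3 of 4 WT vehicle libraries, most other rows stay near their mean, and Tert, Chek1 and Brca1 scatter at few reads.

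The median log2 difference over the 39 genes lay between -0.09 and 0.02 in all 7 comparisons, and over all genes tested between -0.02 and 0.02. Their 95% intervals stayed within a 2-fold change either way for 37 of 39 in the mean folic acid effect and for 35 of 39 in the mean G3 effect. For folic acid in G3 kidneys the number was 34, and for folic acid in WT kidneys it was 30. It was 32 for G3 against WT after vehicle, 32 after folic acid, and 24 for the difference of folic acid effects. Over all 14651 genes the counts were 12421 and 12535 for the means, 10771 and 9410 for folic acid in G3 and WT, 10495 and 9591 between genotypes after vehicle and folic acid, and 6945 for the difference. The other intervals reach beyond 2-fold, and changes smaller than 2-fold are not bounded. Libraries of 1 group varied with a median coefficient of variation of 18.2% over these genes, against 21.4% over all genes tested. That was 1.505 times the counting error for these genes and 1.81 times for all.

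**Figure D2:**
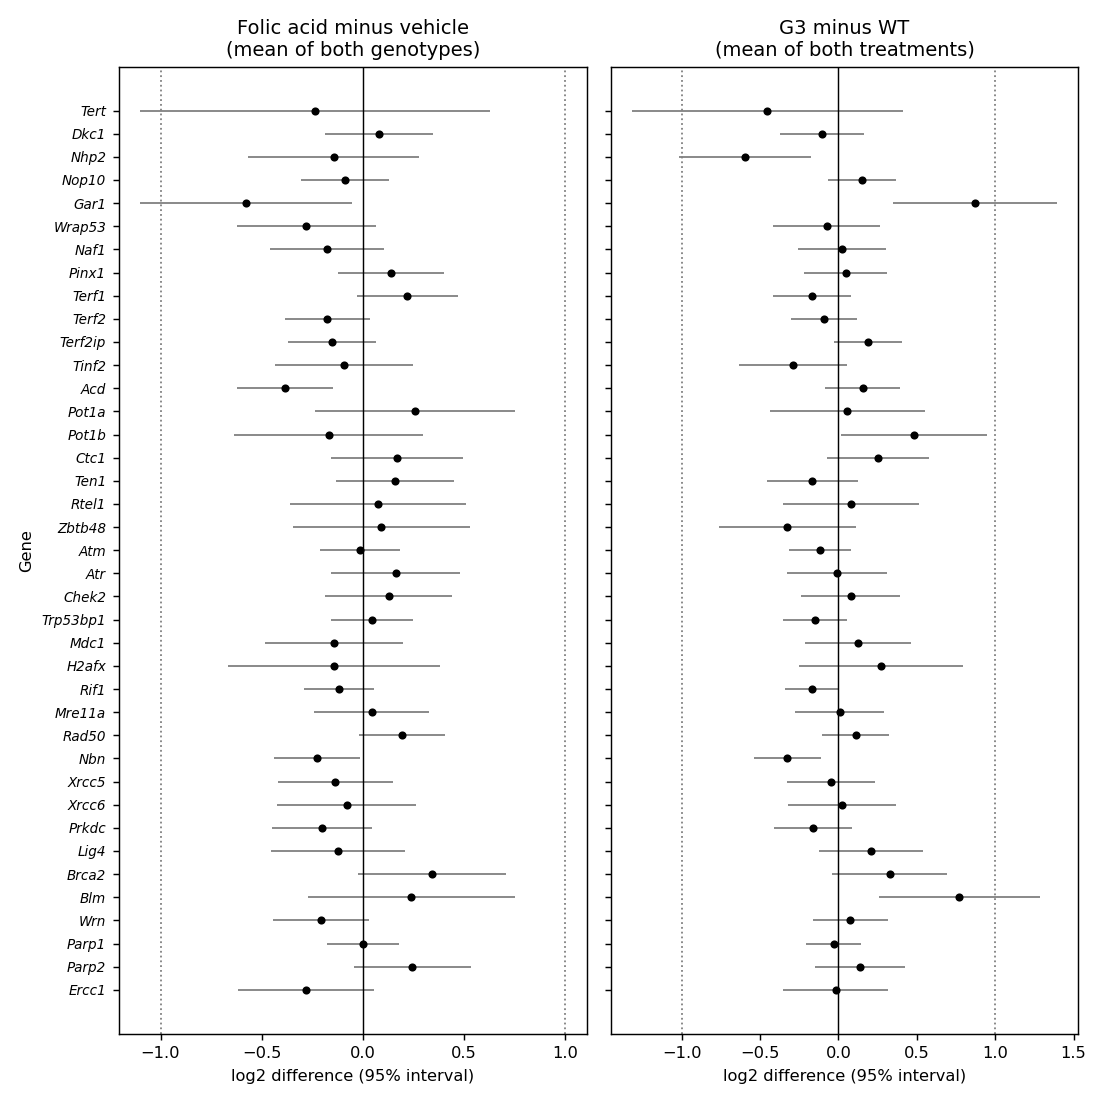
Log2 differences with 95% intervals for the 39 tested genes, folic acid minus vehicle averaged over both genotypes on the left and G3 minus WT averaged over both treatments on the right. Dotted lines mark 2-fold. Acd, Gar1 and Nbn have intervals clear of 0 on the left, and Gar1, Blm, Pot1b, Nbn and Nhp2 on the right, and none of them was called after adjustment.

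Tert, the gene deleted in G3 mice, was read at few counts in every group. It had 6.35, 4.70, 3.00 and 10.7 normalised counts in G3 folic acid libraries and 13.6, 6.72 and 6.67 in WT folic acid libraries. It had 6.10, 2.93, 15.1 and 9.02 in G3 vehicle libraries, against 22.6, 7.58, 15.4 and 3.00 in WT vehicle libraries. The groups overlapped, and the highest library was a WT vehicle kidney. G3 minus WT was -0.45 on the log2(normalised count + 1) scale with an SE of 0.41 over both treatments (limma, adjusted p = 0.563). At 3 to 20 reads a library, Tert RNA did not separate the genotypes, and a read from the 3′ end tests the deletion only if the deleted stretch holds that end.

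Nhp2, which binds the template RNA of telomerase and the guide RNAs of ribosomal RNA modification, was 2.76-fold lower in G3 vehicle kidneys than in WT vehicle kidneys. It had 229.7, 114.6, 308.7 and 216.5 normalised counts in G3 folic acid libraries and 242.8, 144.9 and 137.3 in WT folic acid libraries. It had 126.1, 109.4, 121.2 and 139.3 in G3 vehicle libraries, against 459.2, 213.3, 371.3 and 377.6 in WT vehicle libraries. All G3 vehicle libraries lay below all WT vehicle libraries, which 6.72% of all genes did, while the folic acid groups overlapped each other and the G3 vehicle range. The log2 difference after vehicle was -1.46 with an SE of 0.27 (limma, adjusted p = 0.00971), and 72 of the 14651 genes had smaller p-values.

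The folic acid effect on Nhp2 also differed between the genotypes. Folic acid minus vehicle was 0.73 in G3 kidneys (SE 0.27, limma, adjusted p = 0.226) and -1.01 in WT kidneys (SE 0.29, adjusted p = 0.0549), neither of them called. The difference of these effects, G3 minus WT, was 1.74 with an SE of 0.40 (limma, adjusted p = 0.0229). Both called results use the vehicle libraries. Leaving out WT vehicle 1 gave -1.32 with an adjusted p of 0.0513 for the vehicle comparison, which was called in the other 14 such fits. The difference of effects lost its call without G3 folic acid 1, WT folic acid 2, WT folic acid 3, WT vehicle 1 or WT vehicle 4, with adjusted p up to 0.0701.

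Nhp2 moved with Y-linked RNA from library to library. In the 5 libraries whose 4 Y-linked genes summed to over 600 normalised counts it was at 230 to 459, in the 2 with both kinds of RNA at 213 and 216, and in the 8 with a Y sum under 30 at 109 to 243. The highest of those 8 was WT folic acid 1, and the other 7 lay between 109 and 145. Each of the 3 ranges is set apart from the next once that library is left aside.

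The Y share, the Y sum over that of the highest library, was a listed alternative term beside the 4 group means, and its slope was read after these values were seen. It gave Nhp2 a log2 of 1.41 for a full Y share (SE 0.29, limma, adjusted p = 0.0182), and 190 genes were called for this slope, 1.30% of those tested. Nhp2 was the only one of the 39 called. Leaving out G3 folic acid 2, G3 folic acid 3 or WT vehicle 2, or both libraries with mixed RNA, ended that call, with adjusted p of 0.187, 0.0924, 0.157 and 0.109. Once this covariate was in the model, G3 minus WT after vehicle was -0.32 (SE 0.29, limma, adjusted p = 0.863), and the difference of folic acid effects was -0.04 (SE 0.45), neither called. With labelled sex instead, they were -1.10 (adjusted p = 0.145) and 1.30 (adjusted p = 0.147). G3 vehicle and WT vehicle kidneys do not overlap in Y-linked RNA, so genotype and Y-linked RNA cannot be told apart within vehicle.

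Sample titles carry numbers that also follow the groups, and 3 sets of them were tried as a term. G3 vehicle 1 to 3 make up the first set and all G3 folic acid libraries with G3 vehicle 4 and WT vehicle 4 the last. The middle set joins WT vehicle 1 to 3 with the WT folic acid libraries, whose numbers lie further from each other than the neighbouring sets do, so it is not 1 run of titles. G3 vehicle 4 and WT vehicle 4, whose numbers are close, had Nhp2 at 139.3 and 377.6. With the set as a term the vehicle difference was -1.43 (SE 0.57, limma, adjusted p = 0.722). In WT kidneys no folic acid and vehicle libraries have close numbers.

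**Figure D3:**
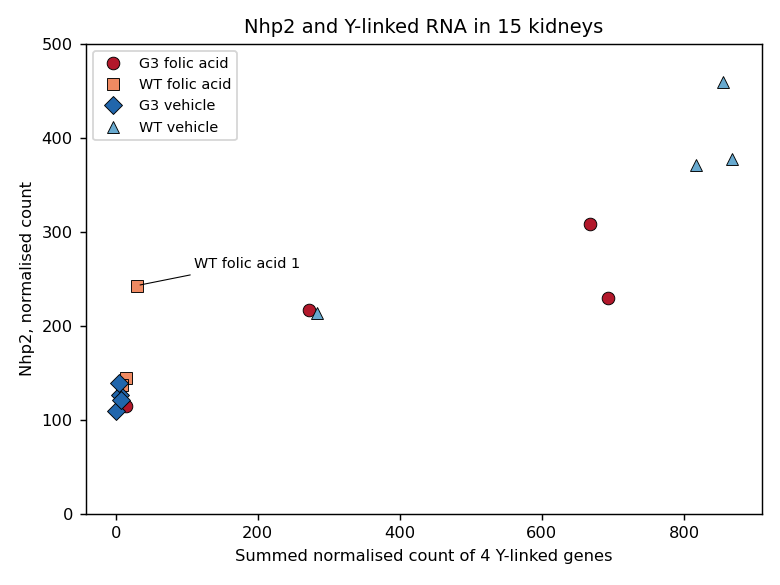
Nhp2 (vertical axis, normalised count) against the summed normalised count of Ddx3y, Kdm5d, Eif2s3y and Uty (horizontal axis) in each of the 15 libraries, by group. The G3 vehicle libraries sit at the lower left at 109 to 139, the WT vehicle libraries with a Y sum over 600 at the upper right at 371 to 459, and WT folic acid 1 stands above the other libraries with a Y sum under 30.

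The gene lies at chr11:51619735-51623714 on the plus strand of GRCm38, and within 500 bases of its 3′ end there is an exon of Rmnd5b on the other strand. The kit keeps the strand, and the protocol names strand-aware counting as its setting without saying that it was used. Rmnd5b, looked at after the Nhp2 values were seen, had 88.1, 71.4, 92.9 and 65.3 normalised counts in the G3 kidneys given folic acid and 55.6, 39.4 and 50.5 in the WT kidneys given it. It had 30.5, 76.2, 68.2 and 66.1 in G3 vehicle, against 96.1, 37.9, 82.5 and 115 in WT vehicle libraries. Its vehicle groups overlapped, and its log2 difference there was -0.42 (SE 0.31, limma, adjusted p = 0.514). For Rmnd5b the log2 difference between folic acid and vehicle was 0.46 in G3 (adjusted p = 0.562) and -0.67 in WT kidneys (adjusted p = 0.244). The difference of these, G3 minus WT, was 1.12 (SE 0.46, limma, adjusted p = 0.217, unadjusted p = 0.0251). In these 4 comparisons its signs are those of Nhp2, and it was called in none. For the mean G3 effect the signs were opposite, 0.14 for Rmnd5b and -0.59 for Nhp2, neither called. Of the 41 genes, Dkc1, Acd and Ercc1 also have an opposite-strand exon near the 3′ end, and none has one of another gene on its own strand.

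Nhp2, Gar1 and Tinf2 were the genes of the list called most often over all alternatives for G3 against WT after vehicle or folic acid, and their promoters are shown for that reason. Each is the 250 bases before the RefSeq start in GRCm38.p6, read 5′ to 3′ on the gene's strand, and capitals mark the ETS core CCGGAAG on either strand. They lie at chr11:51619523-51619772 (plus), chr3:129831397-129831646 (minus) and chr14:55681818-55682067 (minus).
Nhp2: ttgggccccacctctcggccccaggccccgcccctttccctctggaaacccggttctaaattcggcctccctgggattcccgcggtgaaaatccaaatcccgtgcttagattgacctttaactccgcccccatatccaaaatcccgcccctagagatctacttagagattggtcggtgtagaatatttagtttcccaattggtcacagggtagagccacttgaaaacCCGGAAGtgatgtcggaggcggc
Gar1: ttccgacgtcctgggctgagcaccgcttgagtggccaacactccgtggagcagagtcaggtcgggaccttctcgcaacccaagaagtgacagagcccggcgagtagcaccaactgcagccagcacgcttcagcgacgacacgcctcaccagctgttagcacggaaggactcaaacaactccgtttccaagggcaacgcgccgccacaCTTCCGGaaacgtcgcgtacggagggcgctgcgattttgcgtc
Tinf2: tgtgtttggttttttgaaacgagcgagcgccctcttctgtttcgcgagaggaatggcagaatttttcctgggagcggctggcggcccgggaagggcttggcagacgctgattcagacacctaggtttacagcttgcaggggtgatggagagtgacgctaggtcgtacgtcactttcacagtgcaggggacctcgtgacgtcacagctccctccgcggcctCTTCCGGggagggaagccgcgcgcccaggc
The match starts 23 bases before the RefSeq start in Nhp2, 43 in Gar1 and 30 in Tinf2. GENCODE puts the start of Nhp2 38 bases further upstream, so that its match there falls in the first exon. Promoters were found for 31 of the 41 genes, and those of Rtel1 and Lig4 also hold the core. That is 16.1% of the 31 promoters, against 7.83% of 27025 genes with a promoter. The E2F words TTTGGCGC or TTTCCCGC were in 5 promoters, those of Terf2ip, Chek2, Mdc1, Xrcc6 and Brca2, against 1.51% of all genes, and the E-box CACGTG was in 5, against 6.86%. The androgen receptor half-site AGAACA was in 4, against 18.2%. All words were sought on both strands, and they were chosen with the expression values known.

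Gar1, which joins the template RNA protein complex last, was higher in G3 than in WT kidneys on average without passing the adjustment. It had 52.7, 48.9, 56.9 and 25.0 normalised counts in G3 folic acid libraries and 17.0, 13.4 and 25.7 in WT folic acid libraries. It had 38.6, 69.4, 55.2 and 46.1 in G3 vehicle libraries, against 20.4, 26.5, 58.5 and 49.95 in WT vehicle libraries. G3 folic acid 4 lay just below the highest WT folic acid library, and the vehicle groups overlapped widely. G3 minus WT was 1.23 after folic acid (SE 0.36, limma, adjusted p = 0.0804) and 0.87 over both treatments (SE 0.25, adjusted p = 0.0694). DESeq2 on whole reads gave an adjusted p of 0.0335 for the first, and limma without G3 folic acid 4 gave 0.0428. Fitted beside the Y share, the difference after folic acid was 0.93 (SE 0.43, adjusted p = 0.470). Folic acid minus vehicle in WT kidneys was -0.94 (SE 0.36, adjusted p = 0.134).

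Among the other telomerase factors, Wrap53, which brings telomerase to Cajal bodies, had 42.0, 33.6 and 43.8 normalised counts in WT folic acid libraries, against 74.6, 55.9, 66.2 and 44.0 in WT vehicle libraries. These groups did not overlap, as in 10.6% of all genes in that direction, but nearly touched. It was at 49.9, 30.1, 63.9 and 46.5 in G3 folic acid and 50.8, 40.1, 47.6 and 45.1 in G3 vehicle libraries, which overlapped. The difference in WT was -0.57 (SE 0.24, limma, adjusted p = 0.162). Dkc1, the pseudouridine synthase of the complex, averaged 294 ± 78.6 in G3 folic acid, 362 ± 47.5 in WT folic acid, 320 ± 53.1 in G3 vehicle and 295 ± 44.7 in WT vehicle libraries (SD). Nop10, its small partner, averaged 633 ± 65.5 in G3 folic acid, 566 ± 91.9 in WT folic acid, 665 ± 87.1 in G3 vehicle and 610 ± 95.3 in WT vehicle libraries. Naf1, the assembly factor that Gar1 replaces, and Pinx1, an inhibitor of telomerase, had log2 differences between -0.21 and 0.31 in all 7 comparisons. After vehicle, where Nhp2 was called, Dkc1 and Nop10 had log2 differences of 0.12 and 0.13, neither called. The difference between genes was not tested.

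**Figure D4:**
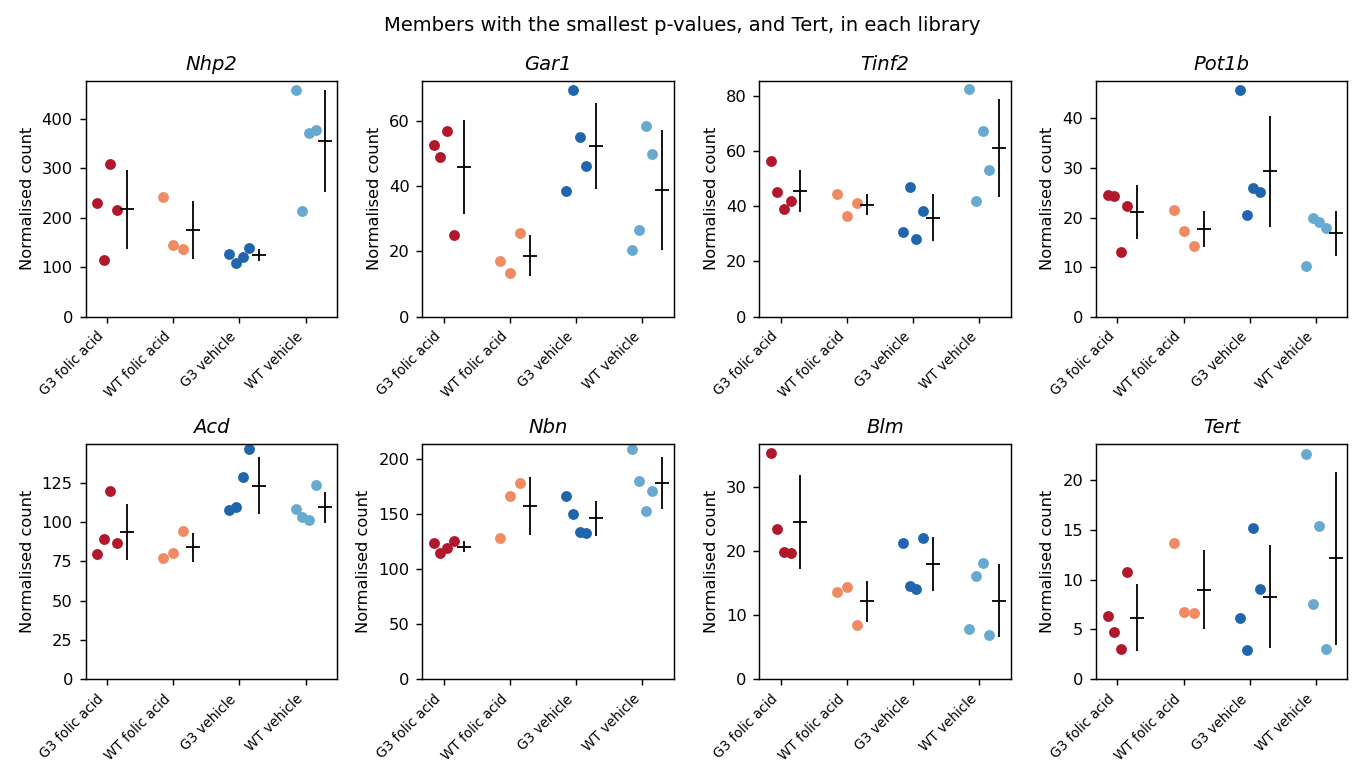
Normalised counts of 8 genes in each library, by group, with the group mean and SD beside the points (4 libraries a group, 3 for WT folic acid). Nhp2 is lower in every G3 vehicle than in every WT vehicle library, Gar1 is low in the WT folic acid libraries, the Acd means are lower after folic acid in both genotypes, and the Tert groups overlap.

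Shelterin had 0 of 7 genes called in any comparison. Of all genes 0.273% to 5.06% were called, so 0 calls in a block this small, here or below, is not a result about the block. Tinf2, which joins the proteins on double-stranded repeat to those on the single-stranded end, had 56.3, 45.1, 39.0 and 42.0 normalised counts in G3 folic acid libraries and 44.2, 36.5 and 40.99 in WT folic acid libraries. It had 30.5, 46.9, 28.1 and 38.1 in G3 vehicle libraries, against 82.6, 41.7, 67.2 and 52.9 in WT vehicle libraries. WT vehicle 2, a library with mixed Xist and Y-linked RNA, lay inside the G3 vehicle range, and the other 3 WT vehicle libraries lay above it. G3 minus WT after vehicle was -0.73 (SE 0.22, limma, adjusted p = 0.0804), and without WT vehicle 2 it was -0.90 (adjusted p = 0.0273). Fitted beside the Y share it was -0.33 (SE 0.36, adjusted p = 0.884).

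Acd, which recruits telomerase and pairs with the Pot1 proteins, had lower means after folic acid by nearly the same amount in both genotypes, without passing the adjustment. It had 79.9, 89.3, 119.9 and 86.8 normalised counts in G3 folic acid libraries, against 107.8, 109.4, 128.7 and 146.3 in G3 vehicle libraries. It had 77.1, 80.6 and 94.4 in WT folic acid libraries, against 108.6, 103.3, 101.7 and 123.9 in WT vehicle libraries. The WT groups did not overlap (10.6% of all genes in that direction), and in G3 a single folic acid library, number 3, reached into the vehicle range. Folic acid minus vehicle was -0.39 in G3 (SE 0.15, limma, adjusted p = 0.250) and -0.38 in WT (SE 0.17, adjusted p = 0.179). Their mean was -0.38 (SE 0.11, adjusted p = 0.0788), and without G3 folic acid 3 its adjusted p was 0.0296. In whole kidney, fewer cells of a type and less RNA per cell cannot be told apart, here or for any gene below.

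Mice have 2 genes for the protein that binds the single-stranded end, Pot1a and Pot1b. Pot1b had 24.5, 24.4, 13.0 and 22.4 normalised counts in G3 folic acid libraries and 21.6, 17.3 and 14.3 in WT folic acid libraries. It had 45.8, 20.5, 26.0 and 25.1 in G3 vehicle libraries, against 10.2, 19.9, 19.2 and 18.0 in WT vehicle libraries. The vehicle groups did not overlap (4.29% of all genes in that direction) but nearly touched. G3 minus WT was 0.75 after vehicle (SE 0.30, limma, adjusted p = 0.195) and 0.48 over both treatments (SE 0.22, adjusted p = 0.227). Pot1a was at 15.0 to 61.3 over all libraries with log2 differences between -0.80 and 0.66, none with an unadjusted p under 0.05. The ratio of Pot1b to Pot1a had a median of 0.706 in G3 folic acid, 0.455 in WT folic acid, 0.924 in G3 vehicle and 0.698 in WT vehicle libraries, with overlapping ranges. Terf1 and Terf2, which bind the double-stranded repeat, and Terf2ip, the partner of Terf2, stayed between -0.27 and 0.26 on the log2 scale in all comparisons.

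CST, the complex that fills in the lagging strand, was represented by Ctc1 and Ten1, beside the helicase Rtel1 and the telomere zinc finger Zbtb48, and 0 of these 4 were called. Ctc1 and Ten1 had log2 differences between -0.17 and 0.28. Rtel1, which unwinds the telomere loop, was at 26.8 to 38.5 normalised counts in G3 folic acid and 16.3 to 25.4 in G3 vehicle libraries, which did not overlap (3.98% of all genes in that direction). In WT kidneys it was at 12.4 to 32.9 after folic acid and 23.0 to 38.9 after vehicle, which did overlap. Its log2 differences were 0.47 in G3 and -0.32 in WT, neither with an unadjusted p under 0.05. Zbtb48, which in human cells trims long telomeres, ranged from -0.62 to 0.39. Rtel1 is named here, as are Prkdc and Trp53bp1 below, because its groups did not overlap, which was seen in the values.

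Of the damage kinases and mediators 10 of 11 were tested and 0 were called. Nbn, the subunit of the Mre11 complex that brings Atm to a break, had 123.5, 114.6, 118.9 and 125.2 normalised counts in G3 folic acid libraries and 128.2, 166.0 and 178.3 in WT folic acid libraries. It had 166.8, 150.5, 134.2 and 133.3 in G3 vehicle libraries, against 209.2, 180.1, 152.5 and 170.8 in WT vehicle libraries. The G3 folic acid libraries lay below all others of the 15, and the vehicle groups overlapped. Such a lower range without overlap was found for 3.77% of all genes against G3 vehicle and for 9.44% against WT folic acid. G3 minus WT was -0.37 after folic acid (SE 0.15, limma, adjusted p = 0.169) and -0.33 over both treatments (SE 0.10, adjusted p = 0.0883). Without WT folic acid 1 the mean over both treatments was -0.40 (limma, adjusted p = 0.0295), a call. Its partners Mre11a and Rad50 had log2 differences between -0.10 and 0.25, with no unadjusted p under 0.05.

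Chek2, the checkpoint kinase downstream of Atm, had 46.3, 55.4, 56.9 and 58.2 normalised counts in G3 folic acid libraries, against 28.5, 43.0, 41.1 and 49.1 in G3 vehicle libraries. It had 43.1, 34.6 and 46.7 in WT folic acid libraries, against 52.0, 40.8, 37.4 and 59.9 in WT vehicle libraries. The groups overlapped within each genotype, and the difference in G3 was 0.44 (SE 0.20, limma, adjusted p = 0.350). Atm stayed between -0.15 and 0.06 and Atr between -0.08 and 0.24 on the log2 scale. Trp53bp1, which favours end joining at breaks, was at 109.8 to 140.9 in G3 folic acid and 144.1 to 158.2 normalised counts in WT folic acid libraries, without overlap (9.44% of all genes in that direction). Its log2 difference of -0.30 had no unadjusted p under 0.05. Rif1, which acts with Trp53bp1, Mdc1, which reads phosphorylated H2AX, and H2afx, which encodes that histone, ranged from -0.42 to 0.56.

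Among the end joining genes 0 were called by limma: for Xrcc5 and Xrcc6 (the Ku proteins), Prkdc (their kinase) and Lig4 (the ligase), all 4 intervals stayed within 2-fold in each of the 7 comparisons. Prkdc was at 72.9 to 79.1 normalised counts in WT folic acid and 91.1 to 104.9 in WT vehicle libraries, without overlap (10.6% of all genes in that direction). Its log2 difference was -0.33 there and -0.07 in G3, neither with an unadjusted p under 0.05.

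Recombination genes and helicases included Blm, which dissolves joined chromosomes. It had 35.4, 23.5, 19.98 and 19.7 normalised counts in G3 folic acid libraries and 13.6, 14.4 and 8.58 in WT folic acid libraries. It had 21.4, 14.7, 14.1 and 22.0 in G3 vehicle libraries, against 7.92, 16.1, 18.2 and 6.99 in WT vehicle libraries. The folic acid groups did not overlap (7.84% of all genes in that direction) and the vehicle groups did. G3 minus WT was 0.95 after folic acid (SE 0.36, limma, adjusted p = 0.150) and 0.77 over both treatments (SE 0.24, adjusted p = 0.0949). All of these rest on 7 to 39 reads a library.

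Blm averaged 24.6 normalised counts in G3 folic acid and 18.0 in G3 vehicle libraries, against 12.2 in WT folic acid and 12.3 in WT vehicle libraries. Sums of dividing cell markers were also highest in G3 folic acid by their medians, but lowest in G3 vehicle. The summed normalised count of 10 such genes was 224 to 484 in G3 folic acid (median 424), 176 to 336 in WT folic acid (213), 87.0 to 221 in G3 vehicle (145) and 156 to 212 in WT vehicle libraries (181). Of the 9 of these that could be tested, 1 was called higher in G3 than in WT after folic acid, where 0.717% of all genes were. After vehicle 1 was called lower in G3 than in WT (2.03% of all genes). Folic acid called 1 lower in WT kidneys (2.89%), 1 higher in G3 kidneys (0.157%) and 2 higher over both genotypes (1.43%). The difference of folic acid effects called 1 higher (2.16%), and the mean G3 effect called 0 (2%). After vehicle the median log2 difference of the 9, G3 minus WT, was -0.16. Nusap1 was at 13.7 to 24.1 in G3 vehicle and 36.5 to 54.9 in WT vehicle libraries, while Mki67 and Top2a overlapped between these groups. It was also at 14.4 to 18.2 in WT folic acid and 26.3 to 76.3 in G3 folic acid libraries. Aurka was at 0 in some WT folic acid and Cdk1 in some WT vehicle library. The summed count of 10 macrophage markers was 1282 to 2963 in G3 folic acid (median 2603), 1335 to 3331 in WT folic acid (1374), 779 to 1226 in G3 vehicle (844) and 1065 to 1469 in WT vehicle libraries (1120). The 3331 was WT folic acid 1, and the other WT folic acid libraries lay at 1335 and 1374. Csf1r, the largest of the 10 in every library, was at 497 to 728 in G3 vehicle and 762 to 1094 in WT vehicle libraries. After vehicle the 10 had a median log2 difference, G3 minus WT, of 0.12, with 1 called lower (2.03% of all genes). Folic acid called 0 of them in WT kidneys, 2 higher in G3 kidneys (0.157%) and 5 higher over both genotypes (1.43%). The part of dividing cells or macrophages in the values of Blm or of any other member was not tested.

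Brca2, which loads the recombinase, was at 56.3 to 77.9 normalised counts in G3 folic acid, 41.3 to 93.0 in WT folic acid, 41.03 to 75.2 in G3 vehicle and 35.1 to 43.6 in WT vehicle libraries. Its log2 differences ran from -0.27 to 0.48, with no unadjusted p under 0.05. Wrn, a helicase of the same family as Blm, had 91.7, 94.9, 84.9 and 116.3 normalised counts in G3 folic acid libraries, against 106.8, 111.4, 142.8 and 142.3 in G3 vehicle libraries. It had 112.3, 115.2 and 82.9 in WT folic acid libraries, against 104.0, 98.6, 117.0 and 102.9 in WT vehicle libraries. Both pairs of groups overlapped, and the difference in G3 was -0.37 (SE 0.15, limma, adjusted p = 0.286).

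Parp2, which marks nicks and gaps with ADP-ribose, had 66.9, 58.5 and 71.5 normalised counts in WT folic acid libraries, against 44.1, 41.7, 53.7 and 39.0 in WT vehicle libraries. It had 63.5, 68.6, 40.96 and 63.5 in G3 folic acid libraries, against 65.1, 47.9, 66.0 and 66.1 in G3 vehicle libraries. The WT groups did not overlap (9.31% of all genes in that direction), and the G3 groups did. Folic acid minus vehicle was 0.55 in WT (SE 0.20, limma, adjusted p = 0.112), and G3 minus WT after vehicle was 0.45 (SE 0.19, adjusted p = 0.211). Parp1 stayed between -0.06 and 0.03 on the log2 scale in all comparisons. Ercc1, a nuclease subunit of excision repair, ranged from -0.33 to 0.03.

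A second list held 65 other telomere and repair genes, of which 63 were in the table and 54 were tested. After folic acid 1 was called higher and 1 lower in WT kidneys, 3.70% of the list against 5.06% of all genes, and limma called 0 in G3 kidneys and 0 for the mean folic acid effect. Between genotypes 1 was called lower after vehicle, 1 lower after folic acid and 1 higher over both treatments, and 0 for the difference of folic acid effects. Each of those single calls is 1.85% of the list, against 2.90%, 2.30% and 2% of all genes. The called genes were Hus1, Rad52 and Rpa2.

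Hus1, part of the ring that is loaded at damaged DNA to activate Atr, was high in WT vehicle kidneys. It had 189, 112, 188 and 137 normalised counts in G3 folic acid libraries and 157, 146 and 147 in WT folic acid libraries. It had 167, 164, 130 and 136 in G3 vehicle libraries, against 293, 279, 222 and 292 in WT vehicle libraries. No library of the other 3 groups reached the WT vehicle range. Folic acid minus vehicle in WT was -0.84 (SE 0.18, limma, adjusted p = 0.0167), G3 minus WT after vehicle was -0.86 (SE 0.16, adjusted p = 0.0108), and these share the WT vehicle libraries. The Y sum was 283 to 867 in WT vehicle libraries, and WT vehicle 2, with a Y sum of 283, had Hus1 at 279. In G3 folic acid 1 and 3 the Y sum was 694 and 668, and Hus1 was at 189 and 188. In G3 folic acid 4 and 2 the Y sum was 273 and 15.0, and Hus1 was at 137 and 112. With the Y share as a term the differences were -0.42 and -0.43 (limma, adjusted p of 0.981 and 0.805). With the title set they were -0.81 and -1.09 (adjusted p of 0.0884 and 0.719). Without WT folic acid 1, WT folic acid 3, WT vehicle 1 or WT vehicle 4 the first call ended, with adjusted p of at most 0.0625, and without WT vehicle 1 or 4 the vehicle call ended (at most 0.0544). With labelled sex as a term the adjusted p was 0.0473 in WT and 0.105 after vehicle.

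Rad52, a recombination mediator, stood out in WT folic acid kidneys. It had 39.9, 41.3, 44.0 and 49.2 normalised counts in G3 folic acid libraries and 72.6, 74.9 and 73.4 in WT folic acid libraries. It had 50.8, 47.9, 36.8 and 59.1 in G3 vehicle libraries, against 50.9, 44.5, 42.2 and 40.0 in WT vehicle libraries. The WT folic acid libraries lay above all others. Without overlap 9.31% of all genes were higher in them than in WT vehicle, and 9.44% were lower in G3 folic acid than in them. Folic acid minus vehicle in WT was 0.72 (SE 0.18, limma, adjusted p = 0.0313), and G3 minus WT after folic acid was -0.75 (SE 0.18, adjusted p = 0.0398). Both calls ended with the Y share as a term, at 0.68 (SE 0.29) and -0.72 (SE 0.22, limma, adjusted p of 0.981 and 0.299). They ended with the title set at 0.67 and -0.56 (adjusted p of 0.116 and 0.999), and with labelled sex at 0.67 and -0.73 (0.0892 and 0.0560). Over all genes, calls in these 2 comparisons fell from 741 and 337 to 1 and 17 with the Y share, and to 2 and 0 with the title set. Left-out libraries ended the Rad52 call for folic acid in WT in 6 of 15 fits, WT folic acid 1 among them (up to 0.0992). They ended its call between genotypes in 5 (up to 0.128).

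Rpa2, a subunit of the protein that coats single-stranded DNA, averaged 74.1 ± 9.98 in G3 folic acid, 46.2 ± 2.83 in WT folic acid, 60.9 ± 11.4 in G3 vehicle and 43.6 ± 7.35 normalised counts in WT vehicle libraries (SD). G3 minus WT was 0.56 over both treatments (SE 0.13, limma, adjusted p = 0.0405). The adjusted p was 0.0389 with the Y share, 0.0702 with labelled sex and 0.997 with the title set as a term, and the call ended in 10 of 15 fits without 1 library (up to 0.111).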

How the data were processed

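Polyadenylated RNA of mouse kidney was measured in 15 libraries made with a 3′ tag kit that keeps the strand, from 300 ng of total RNA with quality scores of 4.7 to 8.0 (mean 6.3), per the labels' protocols. The tools named in the submitters' processing notes are FastQC 0.11.7, TopHat2 2.0.10, Bowtie 1.0.0, SAMtools 0.1.19, HTSeq 0.6.1 and DESeq2, with the build GRCm38. Which annotation, gene filter and strand setting were applied is not stated there or in the labels. Values were deposited as a signal per gene, reads that the authors divided by a size factor for each library. Dividing by the value of 1 read (0.895 to 1.13) gave whole reads for 100% of values within 0.001. Genes of few reads, such as Tert, carry a large counting error.

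Genes with at least 10 normalised counts in at least 3 libraries were tested by limma 3.58.1 (R 4.3.3) on log2(normalised count + 1), using a variance trend and 4 group means over all 15 libraries. A fold change on this scale understates that of low genes. p-values were adjusted by Benjamini-Hochberg over all genes tested. The procedure was tried on simulated counts for folic acid against vehicle in G3 kidneys alone. Those counts held no differences by sex or title set and no outlying library. The members, lists and motifs were chosen with earlier results of these data known. Values in every library are given for Tert, for called members and for up to 6 members of smallest unadjusted p under 0.05 in each comparison. Promoters are from RefSeq (GRCm38.p6) and positions from GENCODE M21. No promoter was matched for Naf1, Pinx1, Terf1, Zbtb48, H2afx, Rif1, Rad50, Nbn, Prkdc and Wrn.

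Alternatives were labelled sex, Y share or 3 sets of title numbers as a term, the compared groups only, each library left out, no filter or a mean of at least 20, pseudocounts of 0.5 and 5, TMM scaling, and count tests on the whole reads. Over the 7 comparisons edgeR 4.0.16 called 50 to 756 genes and DESeq2 1.42.0 called 387 to 1257. Replicate numbers follow accession order and pair nothing.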

Additional observations from a re-analysis of the deposited data

Results flagged for a closer look

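Of 123 sets of 4 libraries of 1 group, 6 had a library whose gap to its neighbour was large for the group's range, and chance flags about 1 in 20 such sets. These were Ten1 in G3 vehicle 4 (53.1 normalised counts, low), Chek1 in WT vehicle 2 (0.948, low), Trp53bp1 in WT vehicle 1 (157.2, high), H2afx in G3 vehicle 2 (44.9, high), Mre11a in G3 folic acid 3 (55.9, low) and Parp2 in G3 vehicle 2 (47.9, low).

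The folic acid effect on Nhp2 differed between the genotypes by 1.74 on the log2 scale, G3 minus WT, in a test of that difference (limma, adjusted p = 0.0229). It was -0.04 with the Y share in the fit.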

How the results depend on the processing

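With labelled sex, the Y share or the set of title numbers as a term, and with the Y share without WT folic acid 1, the members called fell to 0 for G3 against WT after vehicle and to 0 for the difference of folic acid effects. With those terms, Nhp2 after vehicle was -1.10, -0.32, -1.43 and -0.33. Calls over all 14651 genes fell too. After vehicle they went from 425 to 17 with labelled sex, 1 with the Y share and 1 with the title set. For the difference of effects they went from 560 to 103, 2 and 3. DESeq2 called 1 member for folic acid in WT (Nhp2), 1 for G3 against WT after folic acid and 1 for the mean G3 effect (Gar1 in both). Without both libraries of mixed Xist and Y-linked RNA, 1 was called for folic acid in WT, 2 for G3 against WT after vehicle and 1 for G3 against WT after folic acid. With the Y share and without WT folic acid 1, 2 were called for the mean G3 effect. The last 2 kinds of fit, and the Y slope, were chosen after seeing the data. Leaving out each library in turn gave 0 to 2 called members for G3 against WT after vehicle and 0 to 1 for each of the other 6 comparisons. With the Y share in the fit Nhp2 reversed to 0.10 for folic acid in WT and to -0.0426 for the difference of effects. Tert, never called, reversed to 0.29 (folic acid in WT) and 0.13 (G3 against WT after vehicle) with labelled sex, and with the title set to 1.33 after vehicle, 1.38 after folic acid, 0.0561 for the difference of effects and 1.35 for the mean G3 effect. Its difference of effects was 0.0386 with edgeR, 0.0232 with DESeq2 and 0.22 with the Y share without WT folic acid 1. Leaving out single libraries gave Tert -0.65 to 0.21 for folic acid in WT, -0.65 to 0.0259 for folic acid in G3 and -0.51 to 0.35 for the difference of effects. The cause of these shifts was not tested.

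Over 29 settings of the 7 comparisons 5 members were ever called: Nhp2 in 49 fits, Gar1 in 8, Tinf2 in 2, Nbn in 2 and Acd in 1, and the other 36 in none. Calls over all genes, 14651 in the main fit, ran from 0 to 1306 for folic acid in WT and 0 to 387 in G3. For G3 against WT they ran from 1 to 787 after vehicle and 0 to 763 after folic acid. They ran from 2 to 966 for the difference, 0 to 862 for the mean folic acid effect and 0 to 1023 for the mean G3 effect. The 387 and 787, both from DESeq2, are 2.64% and 5.37% of all genes, and 1 of 39 members is 2.56%. Whether members or all genes moved more was not tested. No paired analysis was possible because the labels give no replicate numbers that groups share. Read depth limits Tert, Chek1, Brca1, Blm and Pot1b, and 3 or 4 libraries a group limit all.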

Other observations

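Chek1 and Brca1, below the filter of at least 10 normalised counts, were tested only without it. Chek1 had log2 differences of 1.94 for G3 against WT after folic acid (SE 0.73, limma, adjusted p = 0.175) and -1.77 for folic acid against vehicle in WT (SE 0.73, adjusted p = 0.182). It was at 5.45, 10.3, 0 and 7.16 normalised counts in G3 folic acid libraries, against 1.13, 0 and 0 in WT folic acid libraries. Brca1 had -1.28 for G3 against WT after vehicle (SE 0.57, adjusted p = 0.286).

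The spread within groups exceeded the counting error most for Nhp2, 4.34 times, then for Nop10, 3.51 times, and Dkc1, 3.33 times. Ten1, looked at after its values were seen, had a slope on the Y share of -0.66 (SE 0.27, limma, adjusted p = 0.346).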
